A study of Mus musculus with 14 samples.

Results

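The genes of meiotic recombination followed here are Spo11, Mei1, Prdm9, Dmc1, Psmc3ip, Mnd1, Msh4, Msh5 and Mlh3. They were chosen by name: every non-control probe whose deposited gene name equalled 1 of the 9 symbols was taken. The array carries 14 probes for the 9 genes, of 41174 probes for 27670 genes in all. The name was literally the same for 13 of them, and the only Dmc1 probe carries the older symbol Dmc1h and was matched through its RefSeq accession. Total RNA of whole testis from C57BL/6 mice was hybridized in single colour to Agilent arrays of 60-base probes. Each genotype, WT and Glis3KO2, had 4 samples from mice aged 1 week and 3 from mice aged 4 weeks. Glis3 encodes a zinc finger transcription factor, and Glis3KO2 is the name the labels give to the mice in which it was disrupted; no treatment was given. The sample labels put the older mice at 4 weeks and the series description at 3 weeks. The labels describe neither the allele nor whether samples are separate animals, so p-values measure only the spread between samples.

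Meiotic recombination starts when SPO11 cuts both DNA strands of a chromosome, at sites that the histone methyltransferase PRDM9 has marked and with the help of MEI1. The broken ends are coated by the recombinase DMC1, and the pair PSMC3IP (also called HOP2) and MND1 lets DMC1 invade the homologous chromosome. MSH4 and MSH5 form a clamp that holds such joints, and MLH3 works at the sites that become crossovers. In the testis these proteins act in spermatocytes, which are scarce in the week after birth and abundant once the wave of meiosis that follows has run.

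The probes are shown because they decide which part of each transcript was read. Each of the 6 below has at least 1 reading frame without a stop codon, is written 5′ to 3′ on the transcript strand, and positions are given on mm7, the build named in the array files.
Spo11 A_52_P660477: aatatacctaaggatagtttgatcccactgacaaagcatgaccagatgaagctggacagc
Psmc3ip A_51_P256706: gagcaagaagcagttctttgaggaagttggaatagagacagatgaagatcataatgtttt
Psmc3ip A_52_P238044: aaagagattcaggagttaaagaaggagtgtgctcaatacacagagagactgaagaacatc
Msh4 A_51_P288855: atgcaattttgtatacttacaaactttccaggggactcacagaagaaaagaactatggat
Msh5 A_51_P429865: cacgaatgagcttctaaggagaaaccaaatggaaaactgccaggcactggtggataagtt
Msh5 A_52_P326240: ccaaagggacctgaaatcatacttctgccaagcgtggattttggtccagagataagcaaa

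The Spo11 probe lies at chr2:172736438-172736497 on the plus strand, and the other Spo11 probe, A_51_P290542, at chr2:172737758-172737817. The Psmc3ip probes lie at chr11:101201455-101201589 and chr11:101201944-101202003 on the minus strand. The Msh4 probe aligns over chr3:153771540-153773961 on the minus strand, a span of 2422 bases for 60 bases of probe, so it reads across spliced exons. The same holds for the Msh5 probes A_51_P429865, over 403 bases at chr17:33125919-33126321, and A_52_P326240, over 735 bases at chr17:33141512-33142246. A further Msh5 probe, A_52_P297836, made to the transcript AK017308, lies at chr17:33141661-33141720, inside the stretch that A_52_P326240 skips. The other probes lie at chr15:79646126-79646185 for Dmc1, chr15:82211102-82211161 for Mei1, chr3:84201253-84201312 for Mnd1 and chr17:13794245-13795841 for Prdm9. The Prdm9 probe, too, aligns over more than its 60 bases, with a span of 1597 bases. The 2 Mlh3 probes lie at chr12:83235248-83235307 (A_51_P342786) and chr12:83268570-83268629 (A_52_P413661). Exon and UTR borders of mm7 were not used here.

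Replicates 1 to 3 of 1-week WT had 82.6% to 86.6% of non-control spots well above background, and the other 11 arrays 74.3% to 78.6%. The number of arrays limits the precision. Slides 1 to 3 hold the 1-week arrays and slides 4 and 5 the 4-week arrays, so age and slide cannot be told apart. Slide 3 holds 1-week Glis3KO2 replicate 4 alone, scanned on another day. Glis3 itself (probe A_52_P546200) had a log2 signal of -4.87 ± 0.18 (SD, n = 4) in 1-week WT and was not well above background on any 1-week Glis3KO2 array, where it was at least 4.25-fold lower. This lower bound sets the WT mean against the background level of the Glis3KO2 arrays, and the adjusted p was 0.00534 (limma). At 4 weeks Glis3 was not well above background in either genotype, so the older labels have no such check. Signals are given on the log2 scale after subtraction of the 75th percentile of each array, and all differences are log2 differences with the standard error (SE) of the limma fit. Calls are probes with an adjusted p (Benjamini-Hochberg, over all probes tested) under 0.05.

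In WT testis 6 of the 8 recombination genes tested were called higher at 4 weeks than at 1 week (11 of 13 probes): Spo11, Psmc3ip, Dmc1, Msh4, Msh5 and Mlh3. Mnd1 was called lower and Mei1 was not called. Over all 35031 probes tested, 81.6% were called, 29.9% higher and 51.7% lower, and the median difference was -0.59. Arrays of the ages did not overlap for 30.4% of all probes in the higher and 51% in the lower direction. Cells of a type and RNA per cell cannot be told apart in whole testis.

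Spo11 makes the breaks. Its probe A_52_P660477 gave -4.18, -4.91, -4.56 and -5.09 on the 1-week WT arrays and 1.60, 1.38 and 1.61 on the 4-week WT arrays. The groups lay far apart, with a difference of 6.21 (SE 0.22; limma adjusted p = 3.94e-07), or 74.2-fold. The probe A_51_P290542 rose by 4.72 (SE 0.15), or 26.4-fold, and the probes thus gave different sizes in the same direction. Mei1, required for the breaks to form, gave 0.28 to 1.33 at 1 week and 1.40 to 1.51 at 4 weeks. Its arrays did not overlap, but the difference of 0.59 (SE 0.26; limma adjusted p = 0.0724) was not called.

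Prdm9, which sets the sites of the breaks, was not well above background on any of the 14 arrays. Its log2 signals lay between -9.29 and -7.66 and it entered no test. No reading frame of its 1 probe was free of stop codons. The same held for Spo11 A_51_P290542, Mlh3 A_51_P342786 and the Mnd1 probe, which were well above background on every array.

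Psmc3ip gave 1.46, 1.41, 1.32 and 1.67 in 1-week WT and 4.67, 4.66 and 4.73 in 4-week WT on A_51_P256706. The rise was 3.22 (SE 0.10), or 9.32-fold, and 3.17 (SE 0.11) on the other probe. Dmc1, the recombinase it assists, went from -2.44 ± 0.42 (SD, n = 4) to -1.42 ± 0.15 (SD, n = 3), a rise of 1.02 (SE 0.23; limma adjusted p = 0.00459). Mnd1, the partner of PSMC3IP, went the other way. It gave 0.36, 0.42, 0.20 and 0.32 at 1 week and -0.058, -0.035 and -0.055 at 4 weeks, a fall of 0.37 (SE 0.08; limma adjusted p = 0.00433). That fall is smaller than the median of all probes, and the call was lost when arrays were scaled to their median (-0.24, limma adjusted p = 0.119) and in 1 fit of all arrays (limma adjusted p = 0.089).

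Msh4 rose by 3.56 (SE 0.17), from -4.24, -4.91, -4.74 and -4.68 to -1.18, -0.94 and -1.13. Msh5, its partner in the clamp, rose by 2.16 (SE 0.09), 1.87 (SE 0.27) and 2.38 (SE 0.11) on A_51_P429865, A_52_P297836 and A_52_P326240. On A_52_P297836, not well above background on 1 of the 4 1-week WT arrays, the rise was 0.63 with another background correction (normexp, offset 50), and it was called there too. Mlh3 rose by 1.79 (SE 0.09) on A_51_P342786 and by 1.02 (SE 0.10) on A_52_P413661. No 1-week WT array reached a 4-week WT array on any probe of the 3 crossover genes.

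**Figure D1:**
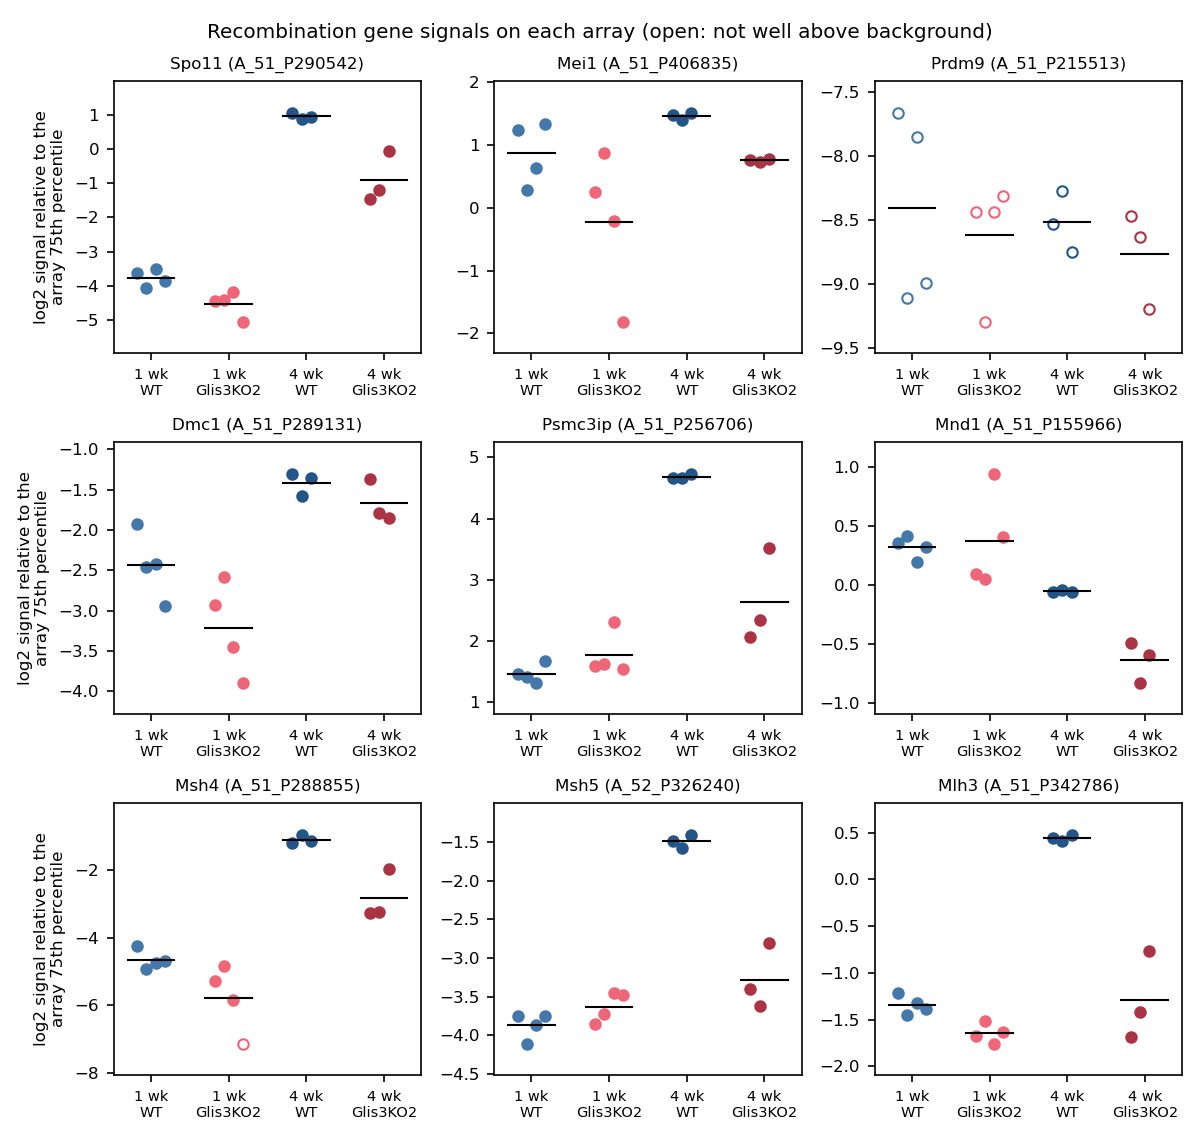
Log2 signal relative to the 75th percentile of the array for the brightest probe of each of the 9 genes, 1 point per array, in the 4 groups; the bar is the group mean and open points were not well above background. Spo11, Psmc3ip, Msh4, Msh5 and Mlh3 were highest on the 3 WT arrays at 4 weeks and lower on the 3 Glis3KO2 arrays, Dmc1 overlapped between genotypes, and Prdm9 stayed at background.

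At 4 weeks, 7 of the 8 recombination genes tested (12 of 13 probes) were called lower in Glis3KO2 than in WT testis, among them genes of break formation, strand invasion and crossover, and no gene was called higher. Over all 31382 probes tested, 69.4% were called, 33.8% lower and 35.6% higher, with a median difference of 0.053. The 12 probes did not overlap between genotypes, as 37.9% of all probes did not in the lower and 39.1% in the higher direction. Among the 12, Msh5 A_52_P297836 passed the background filter through the WT arrays alone. Its call was lost with the normexp correction. Dmc1 was the gene tested that was not called. The brightest probes of the 8 genes had a median difference of -1.74.

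Spo11 gave 1.06, 0.89 and 0.94 in WT and -1.46, -1.21 and -0.064 in Glis3KO2 on A_51_P290542. On A_52_P660477 it gave 1.60, 1.38 and 1.61 in WT and -1.09, -0.86 and 0.55 in Glis3KO2. No Glis3KO2 array reached WT, and replicate 3 came nearest on both probes. The differences were -1.87 (SE 0.35; limma adjusted p = 0.00307) and -1.99 (SE 0.42; limma adjusted p = 0.00466), or 3.66-fold and 3.98-fold lower. Mei1 gave 1.47, 1.40 and 1.51 in WT and 0.75, 0.73 and 0.77 in Glis3KO2. Here the 3 Glis3KO2 arrays lay together, replicate 3 included, and the fall was 0.71 (SE 0.13; limma adjusted p = 0.00281). In 1 fit of all 14 arrays, which takes in the wide spread of Mei1 at 1 week, the adjusted p was 0.230.

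The genes of strand invasion differed in size of change. Psmc3ip gave 4.67, 4.66 and 4.73 in WT and 2.06, 2.33 and 3.53 in Glis3KO2 on A_51_P256706. It fell by 2.04 (SE 0.37; limma adjusted p = 0.00253) on this probe and by 2.01 (SE 0.35) on A_52_P238044, or 4.12-fold and 4.03-fold. Mnd1 gave -0.058, -0.035 and -0.055 in WT against -0.49, -0.82 and -0.59 in Glis3KO2. Its fall of 0.59 (SE 0.15; limma adjusted p = 0.0106) was a 1.5-fold change. Dmc1 gave -1.31, -1.59 and -1.36 in WT and -1.37, -1.79 and -1.85 in Glis3KO2. The genotypes overlapped and the difference was -0.26 (SE 0.18; limma adjusted p = 0.250). Its 95% interval of -0.69 to 0.18 leaves room for a fall as large as that of Mnd1.

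Msh4 gave -1.18, -0.94 and -1.13 in WT and -3.27, -3.23 and -1.97 in Glis3KO2. The difference was -1.74 (SE 0.36; limma adjusted p = 0.00422), or 3.34-fold lower. Msh5 fell on each of its probes. A_52_P326240 gave -1.49, -1.58 and -1.41 in WT and -3.41, -3.63 and -2.80 in Glis3KO2, a difference of -1.79 (SE 0.23). A_51_P429865 differed less, by -1.04 (SE 0.16), and A_52_P297836 by -1.97 (SE 0.19). The last of these was well above background on only 1 of the 3 Glis3KO2 arrays, and with the normexp correction its difference was -0.44 with an adjusted p of 0.134 (limma). Mlh3 gave 0.45, 0.41 and 0.48 in WT and -1.68, -1.41 and -0.77 in Glis3KO2 on A_51_P342786. It fell by 1.73 (SE 0.24; limma adjusted p = 0.00115) there and by 1.38 (SE 0.18) on A_52_P413661.

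Glis3KO2 replicate 3 was the least lowered array for Spo11, Psmc3ip, Msh4 and Mlh3, and it shares slide 5 with WT replicate 2. Within slide 4, which holds 2 arrays of each genotype, the differences were -2.33 and -2.58 for the Spo11 probes, -2.50 for Psmc3ip (A_51_P256706) and -2.10 for Msh4. Within slide 5, with 1 array of each, they were -0.95, -0.82, -1.13 and -1.02. Mei1 differed by -0.75 on slide 4 and -0.62 on slide 5, and Mnd1 by -0.60 and -0.55. Without replicate 3, the number of genes called lower was again 7 and Dmc1 differed by -0.17. The Spo11 probes then differed by -2.30 and -2.50. What sets replicate 3 apart was not tested.

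**Figure D2:**
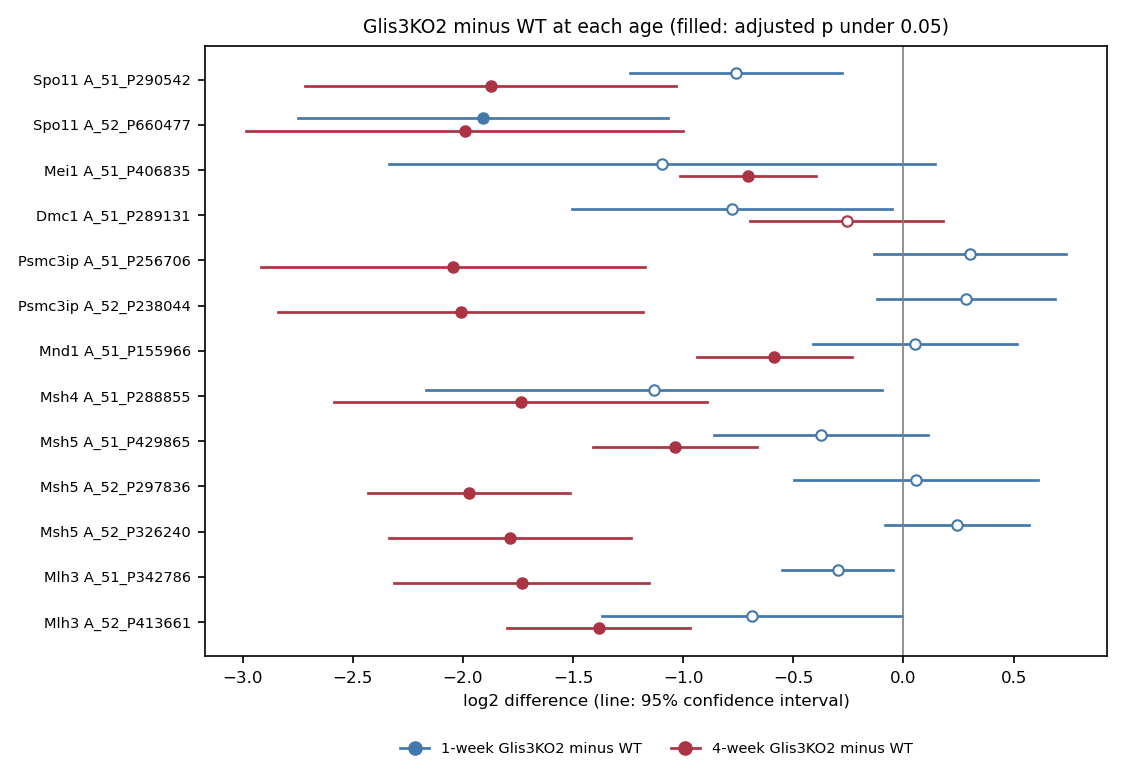
Log2 difference between Glis3KO2 and WT for each of the 13 probes tested, with its 95% confidence interval, at 1 week (blue) and 4 weeks (red); filled points have an adjusted p under 0.05. At 4 weeks 12 probes were called lower, and at 1 week only Spo11 A_52_P660477 was called.

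At 1 week only Spo11 was called, on 1 of its 2 probes, and it was lower in Glis3KO2. That probe, A_52_P660477, passed the background filter through the WT arrays alone. Over all 33710 probes tested, 9.99% were called, 6.75% lower and 3.24% higher, with a median difference of -0.12. The arrays of the genotypes did not overlap for 4 probes, those of Spo11 and Mlh3. Over all probes 13.8% were lower and 13.3% higher without overlap. The split of all calls depended on the scaling: 32.4% of them were higher with the 75th percentile, 70.8% when arrays were scaled to their median, 50.8% after quantile normalization and 44.7% with the normexp correction.

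Spo11 gave -4.18, -4.91, -4.56 and -5.09 in WT and -6.09, -6.39, -6.22 and -7.67 in Glis3KO2 on A_52_P660477. The genotypes did not overlap, and the last 2 of these Glis3KO2 arrays, replicates 3 and 4, were not well above background. The difference was -1.91 (SE 0.37; limma adjusted p = 0.0267), or 3.75-fold lower. On A_51_P290542, well above background on every array, Spo11 gave -3.62, -4.06, -3.51 and -3.86 in WT and -4.43, -4.41, -4.20 and -5.05 in Glis3KO2. That difference was -0.76 (SE 0.21; limma adjusted p = 0.0545) and was not called. With the normexp correction the first probe differed by -0.32 (limma adjusted p = 0.360) and the other also by -0.32. The call on the first probe was also lost without WT replicate 1 (limma adjusted p = 0.0927), replicate 2 (0.067) or replicate 3 (0.085). Within slides 1 and 2 the first probe differed by -1.79 and -1.38.

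None of the other 7 genes tested was called at 1 week. Dmc1 gave -1.92, -2.46, -2.42 and -2.95 in WT and -2.93, -2.58, -3.45 and -3.89 in Glis3KO2, a difference of -0.78 (SE 0.32; limma adjusted p = 0.120). Mei1 gave 1.24, 0.28, 0.64 and 1.33 in WT and 0.25, 0.87, -0.20 and -1.81 in Glis3KO2, a difference of -1.09 (SE 0.54; limma adjusted p = 0.176). Msh4 gave -4.24, -4.91, -4.74 and -4.68 in WT and -5.27, -4.85, -5.84 and -7.14 in Glis3KO2, a difference of -1.13 (SE 0.45; limma adjusted p = 0.115). In each of these Glis3KO2 replicate 4 was the lowest array, and for Msh4 it was not well above background. Without it the differences were -0.55 for Dmc1, -0.57 for Mei1 and -0.68 for Msh4, again not called. Within slides 1 and 2 Mei1 differed by -0.91 and 0.067, and Msh4 by -1.06 and -0.05.

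Mlh3 differed by -0.30 (95% interval -0.55 to -0.046) on A_51_P342786 and by -0.69 (-1.37 to -0.0051) on A_52_P413661. Glis3KO2 replicate 3 was the lowest array of the latter, and without it the difference was -0.39. Psmc3ip stood at 1.46 ± 0.15 (SD, n = 4) in WT and 1.77 ± 0.36 (SD, n = 4) in Glis3KO2 on A_51_P256706, a difference of 0.30 with an interval of -0.13 to 0.74. Mnd1 differed by 0.052 with an interval of -0.41 to 0.51. The Msh5 probes differed by -0.38, 0.058 and 0.24, and A_51_P429865, the first of these, by -0.20 without Glis3KO2 replicate 4.

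Whether the genotype difference changed with age was tested directly, in a fit of all 14 arrays. It was more negative at 4 weeks than at 1 week for 6 of 13 probes, of Psmc3ip, Msh5, Mlh3 and Spo11; over all 35144 probes 51.9% were called, 20.8% in this direction and 31.1% in the other. With median scaling the split of all calls turned, with 9454 in this direction and 7566 in the other. Psmc3ip changed by -2.35 (SE 0.42; limma adjusted p = 0.000618) and -2.29 (SE 0.39) on its probes. Msh5 changed by -2.03 (SE 0.27) on A_52_P326240 and by -2.03 (SE 0.34) on A_52_P297836, where the normexp correction gave -0.64 (limma adjusted p = 0.101). Its probe A_51_P429865 changed by -0.66 (SE 0.29; limma adjusted p = 0.0698). Mlh3 changed by -1.43 (SE 0.25) on A_51_P342786 and by -0.70 (SE 0.39; limma adjusted p = 0.154) on A_52_P413661.

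For Spo11 the probes disagreed. A_51_P290542 changed by -1.11 (SE 0.42; limma adjusted p = 0.0408), and A_52_P660477 by -0.085 (SE 0.60; limma adjusted p = 0.916). With the normexp correction the values were -1.44 (limma adjusted p = 0.00277) and -1.58 (limma adjusted p = 0.00682). The call on A_51_P290542 was lost in 11 of 21 alternatives, with adjusted p-values up to 0.114 (limma). Dmc1 (0.52, SE 0.42), Mei1 (0.39, SE 0.67), Msh4 (-0.61, SE 0.65) and Mnd1 (-0.64, SE 0.27) were not called.

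In Glis3KO2 testis 4 of the 8 recombination genes tested were called higher at 4 weeks than at 1 week (5 of 12 probes): Spo11, Msh4, Msh5 and Dmc1. Mnd1 was called lower, and Psmc3ip, Mlh3 and Mei1 were not called. By the brightest probe of each gene, 3 were called higher and 1 lower. Over all 32192 probes 50.6% were called, 21.8% higher and 28.7% lower. Without overlap, 23.8% of all probes were higher and 32.6% lower. These differences use the same arrays as the comparisons above and are not independent of them. Spo11 rose by 3.61 (SE 0.36) on A_51_P290542 and by 6.13 (SE 0.49) on A_52_P660477. The latter was well above background on 2 of the 4 1-week Glis3KO2 arrays, and with the normexp correction its rise was 3.63. Msh4 rose by 2.95 (SE 0.55), or by 1.5 with the normexp correction, and Dmc1 by 1.54 (SE 0.32; limma adjusted p = 0.00396). Msh5 rose by 1.5 (SE 0.27) on A_51_P429865, or by 0.8 with normexp, while A_52_P326240 differed by 0.35 (SE 0.24; limma adjusted p = 0.258) and A_52_P297836 passed the background filter in neither Glis3KO2 group.

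In the same comparison Psmc3ip gave 1.59, 1.63, 2.31 and 1.55 at 1 week and 2.06, 2.33 and 3.53 at 4 weeks on A_51_P256706, with overlap. The difference was 0.87 (SE 0.37; limma adjusted p = 0.0747), where WT rose by 3.22. It ranged from 0.43 without 4-week Glis3KO2 replicate 3 to 1.16 without replicate 1 of that group. A rise was called in 5 of 16 alternatives on this probe and in 7 of 15 on A_52_P238044. Mlh3 gave -1.68, -1.51, -1.76 and -1.63 at 1 week and -1.68, -1.41 and -0.77 at 4 weeks on A_51_P342786, a difference of 0.36 (SE 0.24; limma adjusted p = 0.249). Mei1 differed by 0.98 (SE 0.54; limma adjusted p = 0.160). Mnd1 fell by 1.01 (SE 0.26; limma adjusted p = 0.0102), from 0.38 ± 0.41 (SD, n = 4) to -0.64 ± 0.17 (SD, n = 3).

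**Figure D3:**
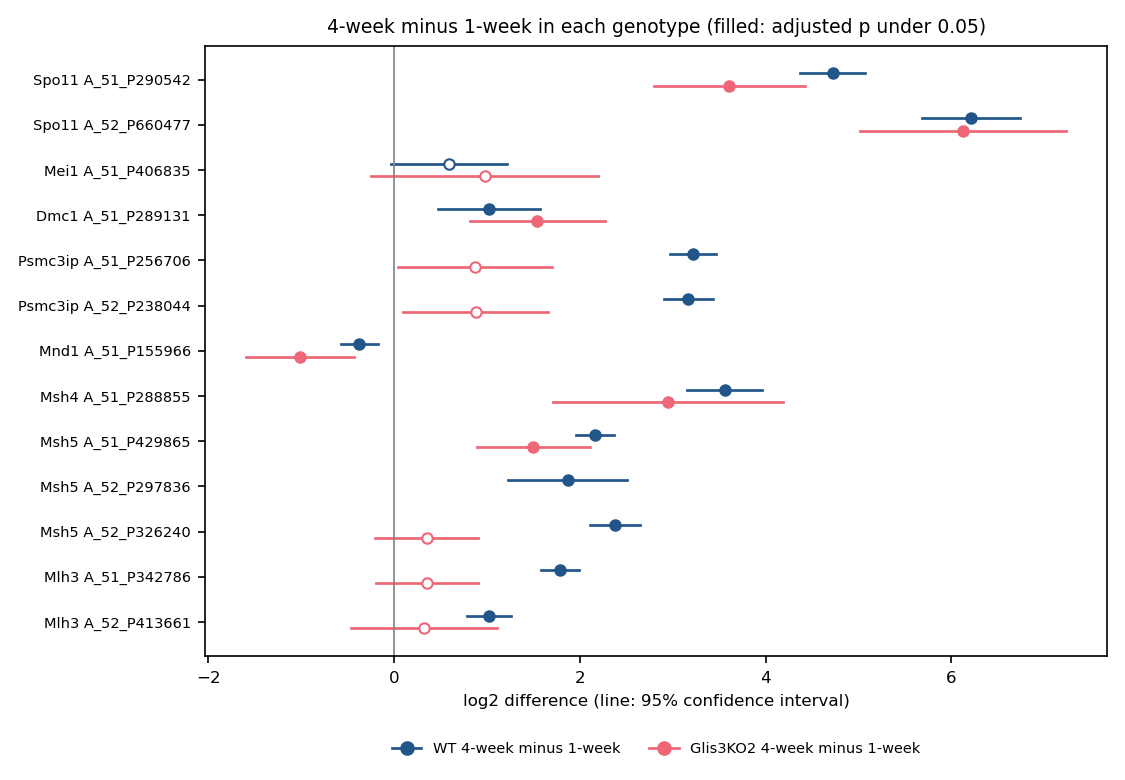
Log2 difference between 4 weeks and 1 week for each probe, with its 95% confidence interval, in WT (blue) and Glis3KO2 (pink); filled points have an adjusted p under 0.05. Spo11 rose in both genotypes, Psmc3ip and Mlh3 were called higher in WT and not called in Glis3KO2, and Mnd1 fell in both.

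Genes that work beside the 9 were taken from lists, 1 brightest probe per gene. At 4 weeks their counts stand beside 33.8% of all probes called lower and 35.6% called higher. Of the partners of SPO11 in break formation, 2 of 3 tested were called lower at 4 weeks and none higher. Hormad1, which recruits the break machinery to the chromosome axis, differed by -1.33 (SE 0.26; limma adjusted p = 0.00350), Hormad2 by -0.95 and Rec114 by -0.27 (limma adjusted p = 0.234). Mei4 was not well above background on any 4-week array. Of the 5 partners of PRDM9 at hotspots 1 was called lower, the RNA-binding protein gene Ewsr1 (-0.95, SE 0.16). Cxxc1 differed by -0.17 and the histone reader gene Zcwpw1 by 0.13, neither called.

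Partners in strand exchange were called lower in 9 of 11 cases, with a median of -0.86, and higher in 1, Sfr1 (0.60), named after its value was seen. Meiob, which binds single-stranded DNA beside the recombinases, fell by 1.42 (SE 0.19), Brca2, which loads them, by 1.10 (SE 0.16), and Rad54l by 0.83 (SE 0.14). Crossover partners were called lower in 6 of 9 cases, with a median of -0.76. The cyclin-like gene Cntd1 fell by 2.21 (SE 0.39; limma adjusted p = 0.00234), the helicase gene Hfm1 by 0.85 (SE 0.13) and the nuclease gene Eme1 by 0.76 (SE 0.17).

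Counterparts of the recombination genes that also serve dividing cells outside meiosis moved both ways, with 7 of 12 called lower and 2 higher. Their differences ran from -1.37 to 1.16. Rad51b fell by 1.37 (SE 0.15) and Xrcc2 by 1.32 (SE 0.15). Genes of meiotic entry and the chromosome axis were called lower in 12 of 13 cases, with a median of -1.35. The cohesin subunit gene Rec8 fell by 1.35 (SE 0.17), and the synaptonemal complex genes Syce2 by 1.27 (SE 0.17) and Syce3 by 2.09 (SE 0.30). Without Glis3KO2 replicate 3 the counts called lower were 2, 1, 9, 6, 7 and 12 for the lists in the order given here. Counts called higher became 4 for the counterparts and 1 for the genes of meiotic entry and the axis.

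At 1 week, where 6.75% of all probes were called lower and 3.24% higher, few genes of these lists were called. Rad51d was higher in Glis3KO2 by 1.99 (SE 0.23; limma adjusted p = 0.00504). Rad51c fell by 0.85 (SE 0.17), Rad54l by 0.50 (SE 0.12) and Cxxc1 by 0.42 (SE 0.11; limma adjusted p = 0.0469). The lists of break formation, crossover and meiotic entry held no called gene at 1 week, and without Glis3KO2 replicate 4 the lists held 1 counterpart called higher and 1 crossover gene called lower.

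With age in WT, 29.9% of all probes were called higher and 51.7% lower. Genes of meiotic entry and the chromosome axis rose in 12 of 13 cases, among them Sycp2 (3.67) and Syce1 (3.64). The 1 that fell was Stra8, which starts meiosis, by 1.02, named after its value was seen. The break partners split, with Hormad1 (3.4) and Hormad2 (2.45) among the 2 of 4 that rose. The strand exchange list rose in 5 of 11 cases and fell in 3, with Meiob up by 5.37 and Brme1, a partner of BRCA2, by 3.60. Crossover partners rose in 5 and fell in 4 of 9 cases; Cntd1 rose by 6.24 and the exonuclease gene Exo1 fell by 1.3. Hotspot partners fell in 3 of 5 cases, Hells among them by 1.70, and Ewsr1 rose by 0.91. The counterparts fell in 7 of 12 cases, with Pms1 by 2.20 and Pms2 by 1.67, and rose in 4, shares near those of all probes.

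In Glis3KO2, 21.8% of all probes were called higher with age and 28.7% lower. Genes of meiotic entry and the chromosome axis rose in 7 of 13 cases, among them Syce3 (2.71) and Syce1 (2.52). Meiob rose by 4.16 and Rad54l fell by 1.98, and 2 of 11 genes of strand exchange were called in each direction. Cntd1 rose by 4.17 and Eme1 fell by 1.71, and 3 of 9 crossover genes were called in each direction. Hormad1 rose by 2.28 and Hormad2 by 1.73, while the third break partner tested, Rec114, fell by 1.37 (limma adjusted p = 0.0361). Hells fell by 1.06, the only hotspot partner called. The counterparts fell in 9 of 12 cases, with Rad51d down by 3.26 and Rad51b by 1.38.

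**Figure D4:**
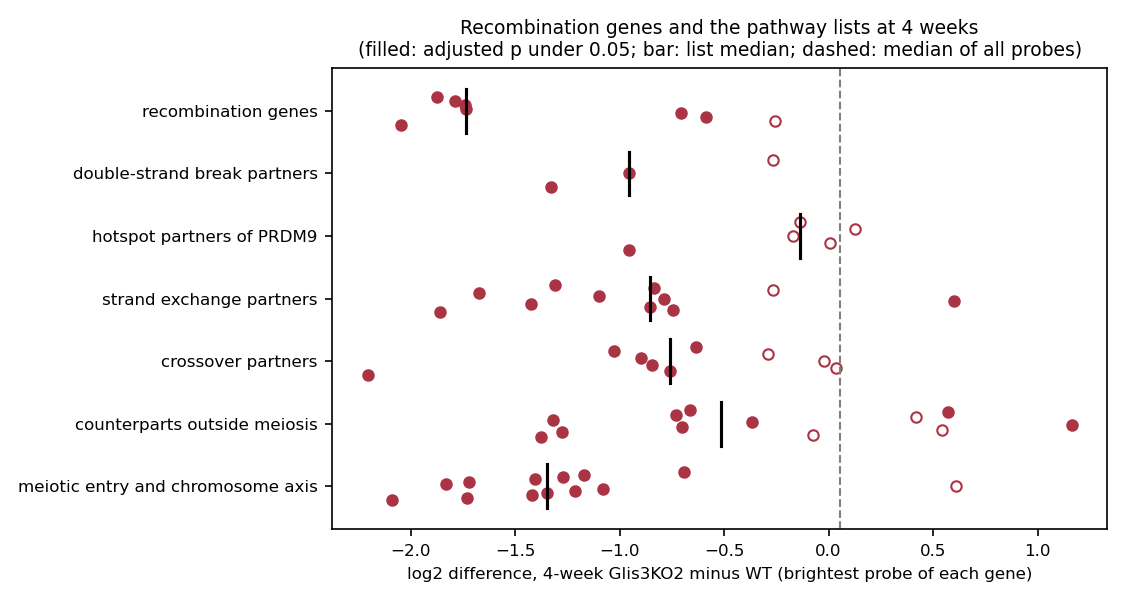
Log2 difference between Glis3KO2 and WT at 4 weeks for the brightest probe of each gene, in the recombination genes and 6 lists of genes that work with them or resemble them; filled points have an adjusted p under 0.05, the bar is the list median and the dashed line the median of all probes (0.053). The recombination genes (median -1.74) and the genes of meiotic entry and the chromosome axis (median -1.35) had the lowest medians. Except the recombination genes and the break partners, each list held genes on both sides of 0.

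Markers of cell types were also called, some lower and some higher. At 4 weeks all 7 pachytene spermatocyte markers (median -2.16), all 7 spermatid markers (median -2.99) and 4 of 6 markers of germ cells in general (median -1.36) were called lower in Glis3KO2, and all 8 Sertoli cell markers were called higher (median 2.06). The summed pachytene signal was 333 to 370 on the WT arrays and 126 to 237 on the Glis3KO2 arrays, and the summed Sertoli signal was 58.9 to 69.9 and 223 to 295. All markers of these 4 lists were above background on every 4-week array. The mean log2 signal of the pachytene markers was 3.22 on Glis3KO2 replicate 3, against 1.82 and 2.05 on replicates 1 and 2, the same array that was highest for Spo11, Psmc3ip and Msh4. Macrophage markers were called higher in 4 of 6 cases and lower in 1, Leydig cell markers lower in 2 of 6 and higher in 1, and epididymis markers lower in 2 of 5. Markers of undifferentiated spermatogonia were called lower in 1 of 5 cases and higher in 1, and those of differentiating spermatogonia lower in 1 of 4 and higher in 1.

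At 1 week 4 of 5 markers of undifferentiated spermatogonia (median -2.25), 2 of 4 of differentiating spermatogonia, 2 of 6 general germ cell markers and 4 of 7 pachytene markers were called lower in Glis3KO2. Of the pachytene markers 1 was called higher, and of the spermatid markers 1 of 6 was called lower. The summed pachytene signal at 1 week was only 1.86 to 2.32 in WT and 1.04 to 1.69 in Glis3KO2. In 4-week WT it was 333 to 370. Of the 7 pachytene markers, 6 were above background on every 1-week WT array and 4 on every 1-week Glis3KO2 array. The spermatid markers Acrv1 and Akap4 were at background on every 1-week Glis3KO2 array. Sertoli cell markers were called higher in 4 of 8 cases, macrophage markers in 4 of 6 and Leydig cell markers in 3 of 6, and no epididymis marker was called. Without Glis3KO2 replicate 4 the counts called higher were 1 for Sertoli cells, 2 for macrophages and 0 for Leydig cells, and the counts called lower were 4, 1, 3 and 3 for undifferentiated and differentiating spermatogonia, general germ cell and pachytene markers. The mean of the general germ cell markers was 0.49 on Glis3KO2 replicate 4, 1.83 to 2.33 on the other 3 Glis3KO2 arrays and 2.73 to 3.29 on the WT arrays. Replicate 4 was also the lowest array for Spo11, Dmc1, Mei1 and Msh4. The part of these cell types in the values of the recombination genes was not tested.

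**Figure D5:**
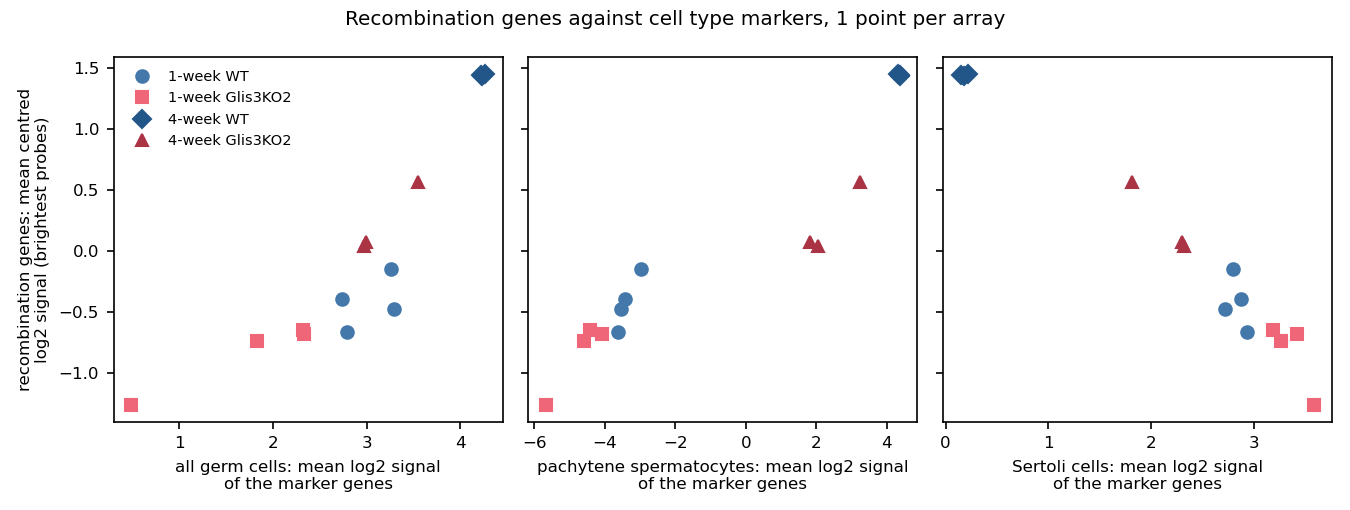
Mean centred log2 signal of the 9 recombination genes (brightest probes) against the mean log2 signal of the markers of germ cells, pachytene spermatocytes and Sertoli cells, 1 point per array. The 3 WT arrays at 4 weeks lay highest for the recombination genes and for the germ cell and pachytene markers and lowest for the Sertoli markers, and 1-week Glis3KO2 replicate 4 lay at the other end.

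The probes whose pattern over the 14 arrays was most like the mean of the recombination genes were those of Zfa-ps (Pearson r = 0.996), Ahcyl2 (0.995 on each of 2 probes), Samd8 (0.995) and Abi2 (0.995). The arrays share age and slide, and 1688 of 27866 probes compared had an r above 0.95. The mean is not a pattern that all 9 genes share. It takes in Prdm9, at background throughout, and Mnd1, which ran against the other genes tested (r from -0.67 with Dmc1 to -0.23 with Mlh3).

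Promoters are shown for Msh5 and Psmc3ip, which fell at 4 weeks, and for Dmc1, which was not called. They are RefSeq sequences of GRCm38.p6, 300 bases from 250 before to 50 after the start site, with capitals for motif matches; 8 of the 9 genes matched, not Spo11.
Msh5, chr17:35046573-35046872, minus strand: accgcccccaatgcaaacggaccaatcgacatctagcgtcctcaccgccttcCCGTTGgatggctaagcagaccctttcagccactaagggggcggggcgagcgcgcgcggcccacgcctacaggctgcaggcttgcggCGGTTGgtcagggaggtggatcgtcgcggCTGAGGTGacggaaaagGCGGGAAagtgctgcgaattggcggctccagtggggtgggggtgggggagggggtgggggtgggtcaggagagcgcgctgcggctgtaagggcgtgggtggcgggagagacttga
Psmc3ip, chr11:101095386-101095685, minus strand: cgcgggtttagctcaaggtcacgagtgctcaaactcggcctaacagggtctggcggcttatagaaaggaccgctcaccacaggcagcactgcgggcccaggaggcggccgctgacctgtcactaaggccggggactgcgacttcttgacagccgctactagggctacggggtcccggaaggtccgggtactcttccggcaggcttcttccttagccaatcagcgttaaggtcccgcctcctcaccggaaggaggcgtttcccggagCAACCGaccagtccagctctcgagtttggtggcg
Dmc1, chr15:79605060-79605359, minus strand: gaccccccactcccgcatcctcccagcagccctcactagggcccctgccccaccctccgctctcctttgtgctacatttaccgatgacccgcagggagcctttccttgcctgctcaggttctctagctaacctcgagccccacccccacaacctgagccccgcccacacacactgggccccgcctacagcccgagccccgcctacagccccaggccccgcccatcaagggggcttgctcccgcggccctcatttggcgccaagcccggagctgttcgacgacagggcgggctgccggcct

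Motifs were searched on both strands. CNCCTCAG, bound by the meiotic activators STRA8 and MEIOSIN, is in 7.94% of 32851 promoters of this length; GCGGGAA, of E2F factors, in 4.60%; CACGTG, the E-box, in 7.15%; CAACNG, a short form of the MYB site, in 35%; and TGACGTCA, the cyclic AMP element, in 1.79%. Msh5 had a CNCCTCAG match 82 to 75 bases before the start, a GCGGGAA match 65 to 59 bases before it, and 2 CAACNG matches. Prdm9 had 2 CNCCTCAG matches and a GCGGGAA match, which shares 1 base with 1 of them. Psmc3ip and Mei1 each had 1 CAACNG match, and Dmc1, Msh4, Mnd1 and Mlh3 had none of these 5 strings of letters. Other forms of the sites were not searched. For Mlh3 and Prdm9, which have 2 starts, the one farthest upstream was used. These matches are descriptions of the letters in the window, and genes that fell at 4 weeks had promoters with and without them.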

How the data were processed

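The deposited intensities are Agilent processed signals of single-colour arrays, background-subtracted by Feature Extraction 9.5 per the submitters' processing notes and file headers; the series value table held the same values in 630252 of 630252 cells. From these, control spots (45018 spots less 43379 non-control) and non-uniform spots were dropped, repeat spots of a probe were combined by their mean, and log2 signals were scaled to the 75th percentile of each array. A probe entered a comparison if 3 or more arrays of either group flagged it as well above background. Each comparison was fitted on its own groups, and the difference between ages on all 14 arrays, with limma 3.58.1 (lmFit, eBayes) in R 4.3.3; the fit was tested on simulated data. Of all probes, 22951 were named by accession, 6659 by symbol and 3109 by an older symbol through RefSeq, and 8455 kept the name in the file.

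The genes and lists were chosen with earlier results of these data known. All probes of the 9 genes are named; of each list, up to 3 genes with the smallest p at 4 weeks, and up to 2 called ones elsewhere. Alternatives were median and quantile scaling, normexp, other filters, the brightest probe per gene, 1 fit of all arrays, slide or replicate as a block, an intensity trend, and leaving out each array. List counts without 4-week Glis3KO2 replicate 3 or 1-week Glis3KO2 replicate 4 were added after the data were seen. Some genes of the lists are not reported here by name.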

Additional observations from a re-analysis of the deposited data

Results flagged for a closer look

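Among 28 probe groups of 4 arrays, 3 had an array far from the others, where chance gives about 1 in 20. Msh5 A_52_P297836 was at -7.21 on 1-week WT replicate 4, where it was not well above background. Psmc3ip A_51_P256706 was at 2.31 on 1-week Glis3KO2 replicate 3, above the other arrays of its group. Prdm9, at background throughout, was at -9.29 on 1-week Glis3KO2 replicate 2.

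The genotype difference itself was called as changed with age for 6 of 13 probes, of 4 genes. Over all probes 51.9% were called, 20.8% as more negative at 4 weeks. The change was -2.35 and -2.29 for the Psmc3ip probes and -2.03 for each of the Msh5 probes A_52_P326240 and A_52_P297836. It was -1.43 for Mlh3 A_51_P342786 and -1.11 for Spo11 A_51_P290542. The call on Msh5 A_52_P297836 was lost with the normexp correction (-0.64, limma adjusted p = 0.101). That on Spo11 A_51_P290542 was lost in 11 of 21 alternatives, and the other Spo11 probe changed by -0.085.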

How the results depend on the processing

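The number of genes called at 4 weeks was 7 and stayed at 6 to 7 under every alternative run, and at 7 without any 1 array. With age it was 7 in WT (6 to 8) and 5 in Glis3KO2 (4 to 6), and 4 for the change of the genotype difference with age (3 to 5, and 3 to 4 without 1 array). At 1 week it was 1, and became 2 after quantile normalization, where Msh5 A_52_P297836 was called higher (0.69, limma adjusted p = 0.0235), 0 with normexp and 0 with the brightest probe per gene name, which leaves out the Spo11 probe that was called; without 1 array it was 0 to 1. Differences that were not called changed sign at 1 week for Msh5 A_51_P429865 after quantile normalization (0.023), and on leaving out 1 array for Msh5 A_52_P297836 (-0.20 to 0.17) and Mnd1 (-0.14 to 0.16). The change with age did so for Spo11 A_52_P660477 (-0.59 to 0.23) and Mei1 (-0.14 to 0.75). The cause was not tested.

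Over all probes the 3367 calls at 1 week became 5220 with median scaling, 1498 with no filter, 2216 with the brightest probe, 5816 in 1 fit of all arrays, 680 with slide as a block, 5517 with an intensity trend and 395 to 5236 without 1 array. Calls of the change with age went from 18246 to 12116 with the brightest probe, which tests fewer probes. Median scaling moved the median of all probes from -0.12 to 0.14 at 1 week, from -0.59 to -0.45 with age in WT and from -0.16 to -0.37 in Glis3KO2; normexp moved it from 0.053 to 0.16 at 4 weeks. With the replicate block 587 probes were called at 1 week, and 1, 7, 8 and 6 of the genes at 1 week, at 4 weeks, with age in WT and in Glis3KO2. After subtraction of the group means of each probe, same-numbered WT and Glis3KO2 arrays of an age correlated between -0.28 and 0.14. With 3 or 4 arrays a group, these values cannot settle whether the replicate numbers pair the samples. Signals near background limit Prdm9, Msh5 A_52_P297836 and the 1-week values of Spo11 A_52_P660477.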
